A study of Mus musculus with 18 samples.

Results

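The interleukin 17, 22 and 23 axis was followed through 9 genes, which are 9 of the 35405 genes in a table of RNA sequencing counts from mouse colon. They were taken by name: the cytokine genes Il17a, Il17c, Il22 and Il23a, the receptor genes Il17ra, Il17rc, Il22ra1 and Il23r, and Il22ra2, which encodes a soluble receptor. All 9 had entries in the table. The 4 genes Il17ra, Il17rc, Il22ra1 and Il22ra2 were readable, the 3 genes Il22, Il23a and Il23r stood near the limit, and the 2 genes Il17a and Il17c were too low to read. A gene was called too low to read when the filter on low counts removed it. It was called near the limit when it passed that filter with a count of 0 in any library or a median count under 20.

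The 18 libraries of polyadenylated RNA form 3 groups of 6. The vector group holds the controls, TNBS stands for trinitrobenzene sulfonic acid, a hapten that induces colitis, and IBC stands for isobavachalcone, a plant chalcone. Per the title, the series asks whether isobavachalcone eases TNBS colitis through the receptor GPR84. The labels give colon tissue for all 18 and name no strain, age, dose or time, and TNBS treatment of the IBC animals is not stated. They also do not say whether libraries came from separate animals, so p-values measure only the spread between these libraries. That spread was larger than counting noise, with a smallest chi-square of 76.5 per degree of freedom between any 2 libraries of a group.

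Interleukin 23 is a dimer of the p19 subunit, encoded by Il23a, and the p40 subunit, encoded by Il12b, and it acts on lymphocytes that carry its receptor. Those lymphocytes, among them type 17 helper T cells, gamma delta T cells and type 3 innate lymphoid cells, release interleukin 17A and interleukin 22. In the gut, interleukin 17A acts on epithelium and stroma to raise neutrophil-attracting chemokines, while interleukin 22 acts on epithelium to raise antimicrobial proteins and support repair.

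Total counts per library ran from 55.7 to 78.9 in units of 1e6. Epcam, Krt8 and Muc2, genes of intestinal epithelium, were detected in 18 of 18 libraries. A split of the libraries that did not follow the groups bears on several of the 9 genes. Hoxb13, a homeobox gene of the distal gut, stood at 123 to 598 counts per 1e6 counts (CPM) in 12 libraries, 4 per group, and at 0 to 1.44 CPM in the other 6. Those 6 are vector 3 and 4, TNBS 2 and 3, and IBC 2 and 5, and they are called low in Hoxb13 here. The mitochondrial share of counts was 17.98% in vector 3 and ran from 4.48% to 9.20% in the other libraries.

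In the deposited table, which names no genome build, 3 of the receptor genes lie on chromosome 6. They are Il17ra (ENSMUSG00000002897, 120440208 to 120464520, plus strand), Il17rc (ENSMUSG00000030281, 113448388 to 113460101, plus strand) and Il23r (ENSMUSG00000049093, 67399916 to 67468839, minus strand). On chromosome 10 lie Il22 (ENSMUSG00000074695, 118040847 to 118045952, plus strand), Il23a (ENSMUSG00000025383, 128132008 to 128134621, minus strand) and Il22ra2 (ENSMUSG00000039760, 19497746 to 19510429, plus strand). Il17a lies on chromosome 1 (ENSMUSG00000025929, 20801129 to 20804720, plus strand), Il22ra1 on chromosome 4 (ENSMUSG00000037157, 135455483 to 135479451, plus strand) and Il17c on chromosome 8 (ENSMUSG00000046108, 123148759 to 123150378, plus strand).

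Set between genes on the FPKM scale (fragments per kilobase per 1e6 fragments), Il17rc stood above the other 8 genes. Il17rc, a subunit of the receptor for interleukins 17A and 17F, had a median of 43.0 FPKM over the 18 libraries and a range of 35.9 to 71.5. Il22ra1, the ligand-binding chain of the interleukin 22 receptor on epithelium, had a median of 4.50 FPKM with a range of 0.592 to 9.87. Il17ra, the subunit shared by several receptors of the interleukin 17 family, had a median of 2.15 FPKM (0.836 to 2.91). Il22ra2, the soluble decoy that binds interleukin 22 and keeps it from its receptor, had a median of 1.83 FPKM (0.701 to 6.04).

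The 5 remaining genes, all 4 cytokines and Il23r, had median levels under 0.1 FPKM. Their medians were 0.0989 FPKM for Il17c, 0.0869 for Il23a, 0.0761 for Il22, 0.0552 for Il23r and 0 for Il17a. In the order of levels, the step below Il17rc was free of overlap, as Il17rc was above Il22ra1, Il17ra and Il22ra2 in 18 of 18 libraries. The step from Il22ra2 (lowest 0.701 FPKM) down to Il17c (highest 0.165 FPKM) was free of overlap too. Il22ra1 was above Il17ra in 13 libraries and above Il22ra2 in 14, and Il17ra was above Il22ra2 in 12. The order of these 3 neighbours thus varied between libraries, and the differences between them were not tested. Il22 was below those 3 genes in 17 of 18 libraries, and the other 4 low genes were below them in 18 of 18.

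**Figure D1:**
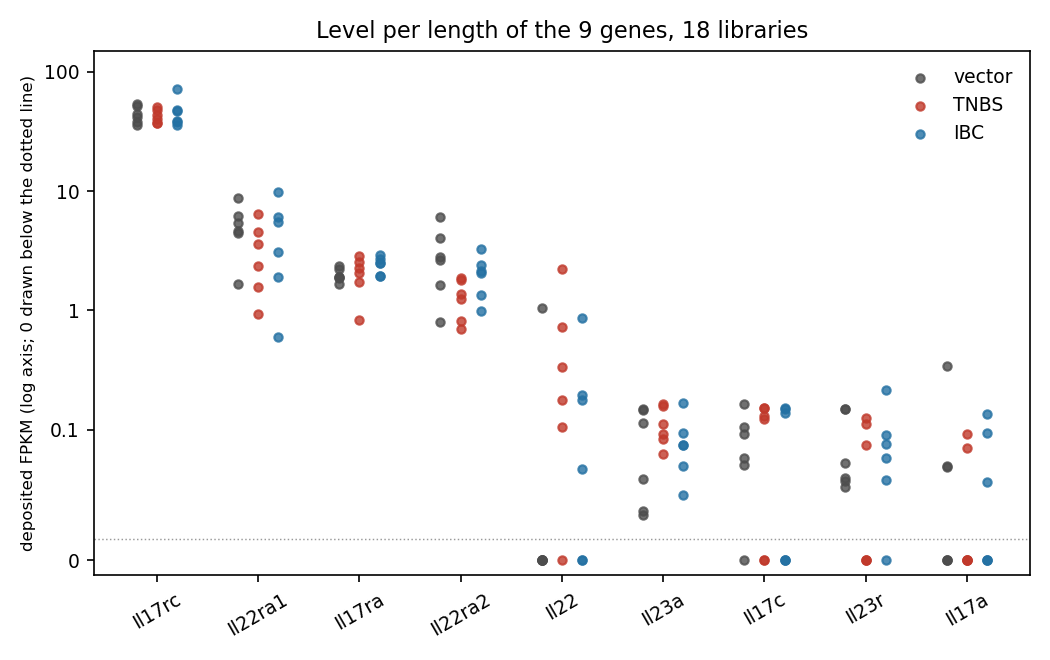
Deposited FPKM of the 9 genes on a log axis, with 1 point per library, coloured by group and with values of 0 drawn below the dotted line. Il17rc lies between 35.9 and 71.5 FPKM, above all other genes in all 18 libraries, and no value of the cytokine genes or Il23r exceeds 2.22 FPKM.

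Among the ligands, Il17a had 75 counts over all 18 libraries and Il17c had 83. Il17a, the founding cytokine of its family, was detected in 8 of 18 libraries, 3 of vector, 2 of TNBS and 3 of IBC. Its highest count, 28, was in a vector library, vector 5. Il17c, an epithelial cytokine of the same family, was detected in 12 of 18 libraries, 5 of vector, 4 of TNBS and 3 of IBC, with a highest count of 9. No direction can be read for either gene, and both were left out of the test by the filter.

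When all 35405 genes were tested without a filter, Il17a gave a log2 fold change of -1.15 ± 1.51 (SE) in TNBS against vector (adjusted p = 0.745, edgeR's quasi-likelihood test). Il17c gave 0.19 ± 1.13 there (edgeR adjusted p = 1). Low counts of this table pile up at 4 and 8, so a sequenced fragment can be worth more than 1 count. For that reason no upper limit is given where a count is 0.

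Il22, the cytokine that acts on epithelium, had 508 counts over the 18 libraries, and 192 of them lay in TNBS 3 alone. In vector it was at 0 in 5 libraries and at 99 counts in vector 4. In TNBS the counts were 8, 27, 192, 14, 60 and 0, and in IBC they were 0, 69, 4, 0, 20 and 15, in the order of the library numbers. It was thus detected in 1 of 6 vector, 5 of 6 TNBS and 4 of 6 IBC libraries.

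Mean levels of Il22 were 0.209 ± 0.512 CPM for vector, 0.793 ± 1.09 for TNBS and 0.275 ± 0.427 for IBC (SD, n = 6 each), and the groups overlapped in all 3 comparisons. The log2 fold change of TNBS against vector was 1.88 ± 1.49 (SE), with a 95% interval from -1.05 to 4.80, and it did not pass the test (edgeR adjusted p = 0.499). IBC against TNBS gave -1.53 ± 1.48 (edgeR adjusted p = 0.925) and IBC against vector gave 0.35 ± 1.48 (edgeR adjusted p = 0.973). The vector value rests on vector 4: without that library every vector count is 0 and the mean level in vector is 0 CPM.

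Il22 was also set against the Hoxb13 split. In the 6 libraries low in Hoxb13 it averaged 0.991 ± 1.04 CPM with a median of 0.774, and in the 12 others it averaged 0.143 ± 0.317 CPM with a median of 0. Within the 12, the 4 vector libraries were at 0 and 3 of 4 TNBS libraries had counts, with up to 1.11 CPM. Within the 6, TNBS had 0.431 and 2.86 CPM, vector had 0 and 1.25, and IBC had 0.281 and 1.12. The part of the split in the Il22 values was not tested apart from these levels and the fits within each set.

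Il23a, the p19 subunit that is specific to interleukin 23, was detected in 18 of 18 libraries at 4 to 27 counts. Its level ran from 0.0506 to 0.377 CPM in vector (median 0.209), from 0.162 to 0.431 in TNBS (median 0.279) and from 0.0844 to 0.385 in IBC (median 0.172). The highest library of each group lay close to those of the others, and the groups overlapped. The log2 fold change was 0.47 ± 0.51 (SE) in TNBS against vector, and 5 of 6 TNBS libraries were above the vector median (edgeR adjusted p = 0.620). It was -0.60 ± 0.51 in IBC against TNBS (edgeR adjusted p = 0.925) and -0.13 ± 0.51 in IBC against vector (edgeR adjusted p = 0.970). Within the 12 libraries high in Hoxb13, TNBS against vector gave -0.07 on the log2 scale, against the 0.47 over all libraries, so the direction turned. Within the 6 low libraries, TNBS stood at 0.239 and 0.431 CPM, both above vector at 0.0506 and 0.0632, a separation upwards that 22.7% of all genes tested also had. The fit of that set alone gave 2.52 (edgeR adjusted p = 0.357).

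Il12b, which encodes the p40 subunit shared by interleukins 12 and 23, was detected in 14 of 18 libraries with a median of 0.0470 FPKM. Its mean level was 0.256 ± 0.181 CPM for vector, 0.159 ± 0.171 for TNBS and 0.0826 ± 0.0676 for IBC (SD, n = 6 each). The groups overlapped, and the log2 fold change of TNBS against vector was -0.67 ± 0.98 (edgeR adjusted p = 0.726). Both chains of interleukin 23 were therefore near the detection limit in all groups.

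**Figure D2:**
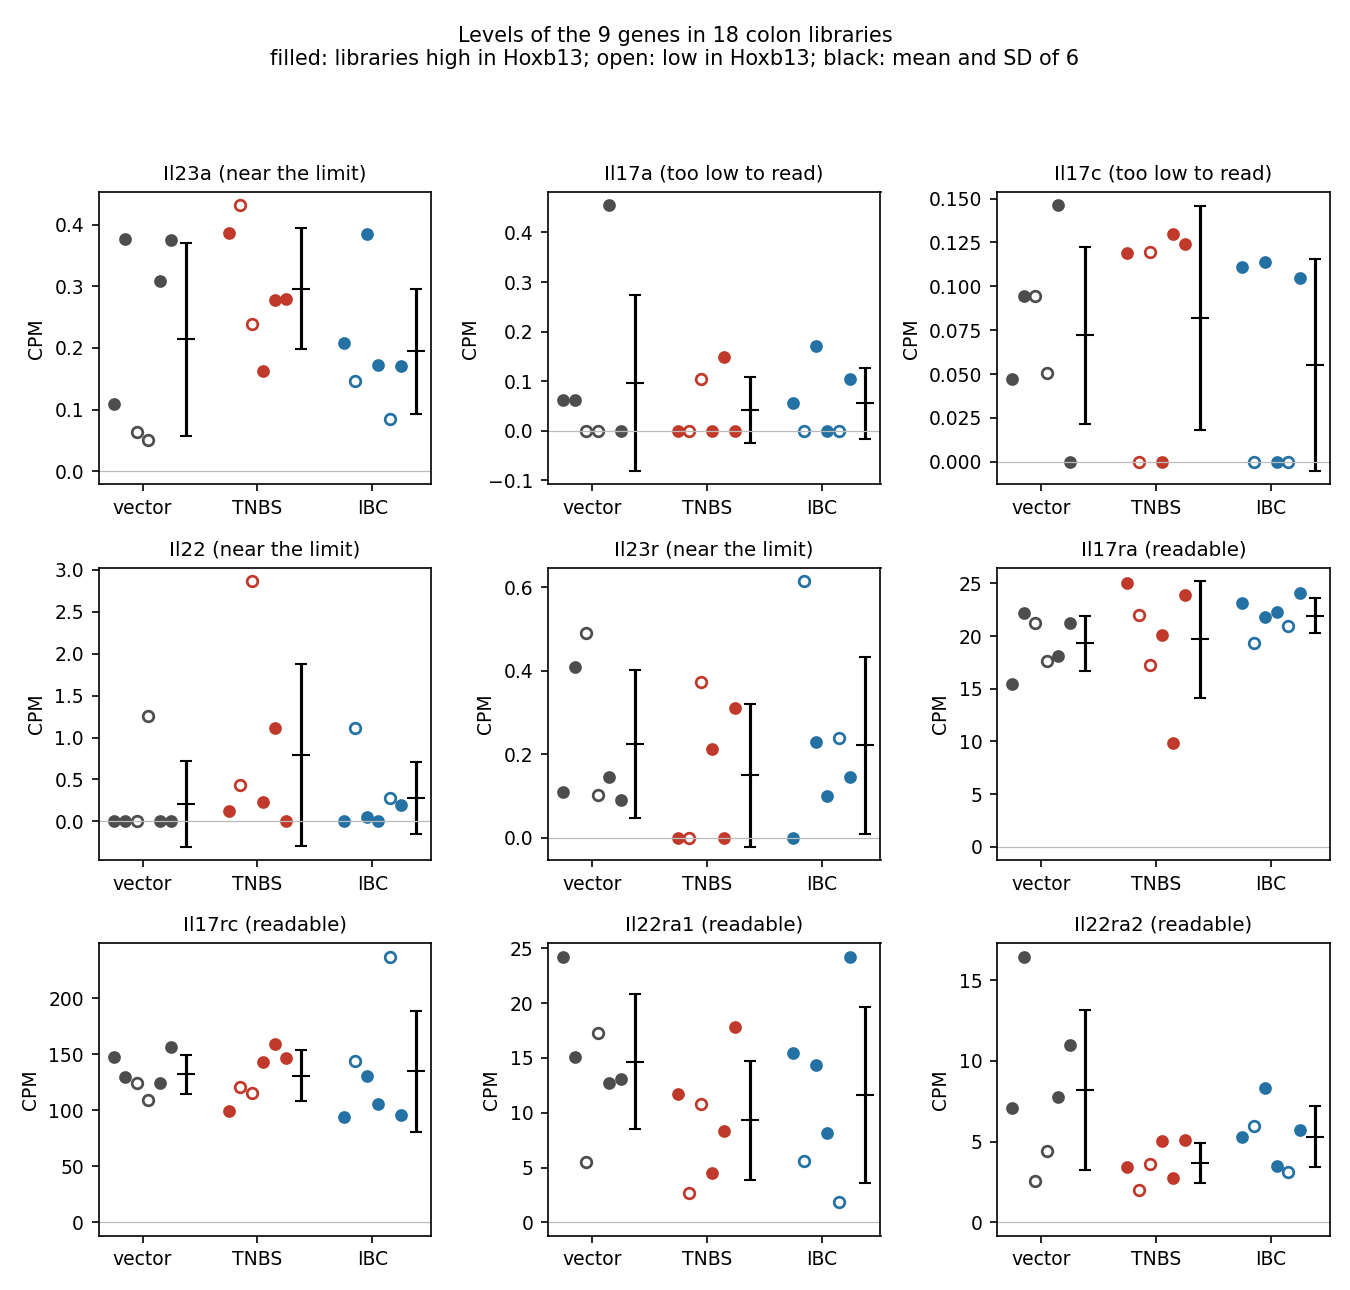
Level of each of the 9 genes in CPM, with 1 point per library in 3 groups of 6, filled where the library is high in Hoxb13 and open where it is low, and with the mean and SD of each group in black. The points of the 3 groups overlap in every panel, and Il22ra2 shows the TNBS points at 1.98 to 5.09 CPM against 2.59 to 16.5 CPM in vector.

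Of the 7 genes tested, Il22ra2, the soluble decoy, had the smallest p-value in TNBS against vector. Its vector libraries ranged from 2.59 to 16.5 CPM with a median of 7.42, its TNBS libraries from 1.98 to 5.09 with a median of 3.53, and its IBC libraries from 3.10 to 8.34 with a median of 5.50. The means were 8.22 ± 4.96, 3.66 ± 1.23 and 5.31 ± 1.9 CPM (SD, n = 6 each). All 6 TNBS libraries lay below the vector median, and the 2 lowest vector libraries, which are the 2 low in Hoxb13, lay within the TNBS range.

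The log2 fold change of Il22ra2 in TNBS against vector was -1.17 ± 0.37 (SE), with a 95% interval from -1.898 to -0.44. Its unadjusted edgeR p was 0.00562, rank 681 of the 20855 genes tested, and its adjusted p was 0.172, so it did not pass the test. IBC against TNBS gave 0.54 ± 0.37 (interval -0.18 to 1.26, edgeR adjusted p = 0.925) and IBC against vector gave -0.63 ± 0.37 (interval -1.35 to 0.09, edgeR adjusted p = 0.70). The TNBS libraries enter both of the comparisons with TNBS, so the fold changes of opposite sign are not independent of each other.

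The Il22ra2 values were also compared within each Hoxb13 set. Among the libraries high in Hoxb13, the 4 TNBS libraries stood at 2.77 to 5.09 CPM, all below the 4 vector libraries at 7.09 to 16.5, and 3.34% of all genes tested were likewise separated downwards. In the 6 low libraries, TNBS stood at 1.98 and 3.61 CPM and vector at 2.59 and 4.42, which overlap. A fit of the high set alone gave a log2 fold change of -1.37 (edgeR adjusted p = 0.184) and a fit of the low set alone gave -0.33 (edgeR adjusted p = 0.792). The difference between these fold changes was not itself tested. A fit with the Hoxb13 set as a term gave -1.07 (edgeR adjusted p = 0.10), and DESeq2 gave -1.16 (adjusted p = 0.0573).

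Markers of the cells that could hold Il22ra2 were set beside it. In bulk tissue, fewer cells of a type and less RNA per cell cannot be told apart. The summed level of 8 B cell and follicle markers ranged from 11.3 to 202 CPM for vector, from 23.6 to 147 for TNBS and from 36.4 to 132 for IBC. Vector 2 was highest both in that sum (202 CPM) and in Il22ra2 (16.5 CPM), and of the 8 markers Pax5 and Fcer2a were at 0 in some libraries. The sum of 10 macrophage and dendritic cell markers ranged from 161 to 696 CPM for vector, 327 to 1702 for TNBS and 333 to 1008 for IBC, with no marker at 0. The median sum of the B cell list was 75.1 CPM in TNBS against 49.5 in vector, while 7 of its 8 markers had a log2 fold change below 0 there (list median -0.40), as 51.1% of all genes did. The eighth, the follicle chemokine Cxcl13, averaged 42.7 CPM in TNBS against 14.0 in vector. The median sum of the macrophage and dendritic cell list was 517 CPM in TNBS against 434 in vector, and 6 of its 10 markers had a fold change above 0, as 48.9% of all genes did. Of its dendritic cell markers, Itgax averaged 6.30 CPM in TNBS against 9.46 in vector and Flt3 averaged 1.63 against 2.36. Cd209a, on the same list, averaged 0.728 CPM in TNBS against 0.748 in vector. Their part in the Il22ra2 values was not tested.

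Il22ra1 ranged from 5.48 to 24.2 CPM in vector (median 14.1), from 2.70 to 17.8 in TNBS (median 9.54) and from 1.9 to 24.2 in IBC (median 11.2). Its spread was wide in every group. Its log2 fold change was -0.65 ± 0.50 (SE) in TNBS against vector, with 5 of 6 TNBS libraries below the vector median (edgeR adjusted p = 0.486). It was 0.32 ± 0.50 in IBC against TNBS (edgeR adjusted p = 0.956) and -0.34 ± 0.50 in IBC against vector (edgeR adjusted p = 0.916).

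The 2 Hoxb13 sets were compared for Il22ra1 as well. Its level was 14.1 ± 5.96 CPM (SD, n = 12) in the libraries high in Hoxb13 and 7.29 ± 5.81 (SD, n = 6) in those low in it, and the ranges overlapped. Within the high set the means were 16.3 CPM for vector, 10.6 for TNBS and 15.5 for IBC (n = 4 each), and within the low set they were 11.4, 6.74 and 3.73 (n = 2 each). Il10rb, the second chain of the interleukin 22 receptor, varied less, with a median of 21.3 FPKM and a range of 16.6 to 23.9 over the 18 libraries. Its log2 fold change in TNBS against vector was 0.24 ± 0.12 (edgeR adjusted p = 0.279), with -0.11 ± 0.12 in IBC against TNBS (edgeR adjusted p = 0.926) and 0.13 ± 0.12 in IBC against vector (edgeR adjusted p = 0.832).

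The ratio of the receptor chain Il22ra1 to the decoy Il22ra2, taken within each library on the FPKM scale, had a median of 1.83 for vector, 2.92 for TNBS and 1.97 for IBC. It ranged from 0.889 to 3.81 for vector, from 0.871 to 3.41 for TNBS and from 0.595 to 4.12 for IBC. The groups overlapped over nearly their whole ranges.

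The 2 subunits of the interleukin 17A receptor had the narrowest intervals of the 7 genes tested. Il17ra ranged from 15.4 to 22.2 CPM in vector (median 19.6), from 9.89 to 25.0 in TNBS (median 21.0) and from 19.3 to 24.1 in IBC (median 22.02). The lowest value, 9.89 CPM, was that of TNBS 5, and the other 17 libraries lay between 15.4 and 25.0. The log2 fold changes were 0.03 ± 0.18 (SE) in TNBS against vector (95% interval -0.32 to 0.37, edgeR adjusted p = 0.943) and 0.16 ± 0.18 in IBC against TNBS (interval -0.19 to 0.50, edgeR adjusted p = 0.935). IBC against vector gave 0.18 ± 0.18 (interval -0.16 to 0.53, edgeR adjusted p = 0.850).

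Il17rc ranged from 110 to 156 CPM in vector (median 127), from 99.8 to 160 in TNBS (median 132) and from 94.4 to 237 in IBC (median 118). The 237 CPM belongs to IBC 5, a library low in Hoxb13, and it is the highest of all 18. The log2 fold change was -0.01 ± 0.20 (SE) in TNBS against vector (95% interval -0.40 to 0.38, edgeR adjusted p = 0.981) and 0.04 ± 0.20 in IBC against TNBS (interval -0.35 to 0.43, edgeR adjusted p = 0.987). IBC against vector gave 0.03 ± 0.20 (edgeR adjusted p = 0.984). The near-zero values with IBC joined opposite ones: within the high set IBC averaged 107 CPM against 140 in vector, and within the low set 191 against 117, with n = 4 and n = 2 per group.

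Il17rc overlaps an antisense gene, Gm57002, which held 47 to 208 counts per library against 6703 to 16853 for Il17rc, and the sources used here do not say whether strand was used in counting. The other 8 genes overlap no gene of the table. The ratio of Il17rc to Il17ra on the FPKM scale had a median of 20.1 with a range of 13.0 to 52.4, and the 52.4 came from TNBS 5, where Il17ra was lowest.

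Il23r, the receptor chain specific to interleukin 23, was detected in 6 of 6 vector, 3 of 6 TNBS and 5 of 6 IBC libraries, at 0 to 38 counts. Its level ranged from 0.0893 to 0.489 CPM in vector (median 0.128), from 0 to 0.373 in TNBS (median 0.106) and from 0 to 0.615 in IBC (median 0.186). The groups overlapped over nearly their whole ranges. The log2 fold change was -0.57 ± 1.00 (SE) in TNBS against vector (edgeR adjusted p = 0.772), 0.55 ± 1.00 in IBC against TNBS (edgeR adjusted p = 0.966) and -0.02 ± 0.98 in IBC against vector (edgeR adjusted p = 0.999). Il12rb1, the other chain of that receptor, was detected in all 18 libraries with a median of 0.244 FPKM, and gave 0.44 ± 0.30 in TNBS against vector (edgeR adjusted p = 0.421). The sum of 10 T cell markers, none of them at 0, ran from 24.9 to 71.4 CPM for vector, 35.9 to 58.3 for TNBS and 41.3 to 59.4 for IBC.

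Counted over the axis, 0 of the 7 genes that entered the test passed an adjusted p of 0.05 in TNBS against vector by edgeR, where 0.0192% of all 20855 genes (4 genes) did. At an unadjusted p under 0.05, 1 of 7 was called there, Il22ra2, against 17.8% of all genes in either direction. In IBC against TNBS edgeR called 0 of 7 adjusted and 0 of 7 unadjusted, against 0% and 3.93% of all genes. In IBC against vector it called 0 of 7 adjusted and 0 of 7 unadjusted, against 0% and 8.53%. DESeq2 called 0 of the 7 in each comparison, against 2.76%, 0.00961% and 0.911% of the genes it gave an adjusted p in the same order.

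The 7 genes were also read together. Their median log2 fold change was -0.01 in TNBS against vector, 0.16 in IBC against TNBS and -0.02 in IBC against vector, and over all genes tested the medians were -0.01, 0.00 and -0.01. For none of the 7 did the groups of 6 separate without overlap, against 1.17%, 0.149% and 1.08% of all genes in the 3 comparisons. The 3 comparisons share libraries in pairs, so their values for a gene are given side by side and are not independent.

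**Figure D3:**
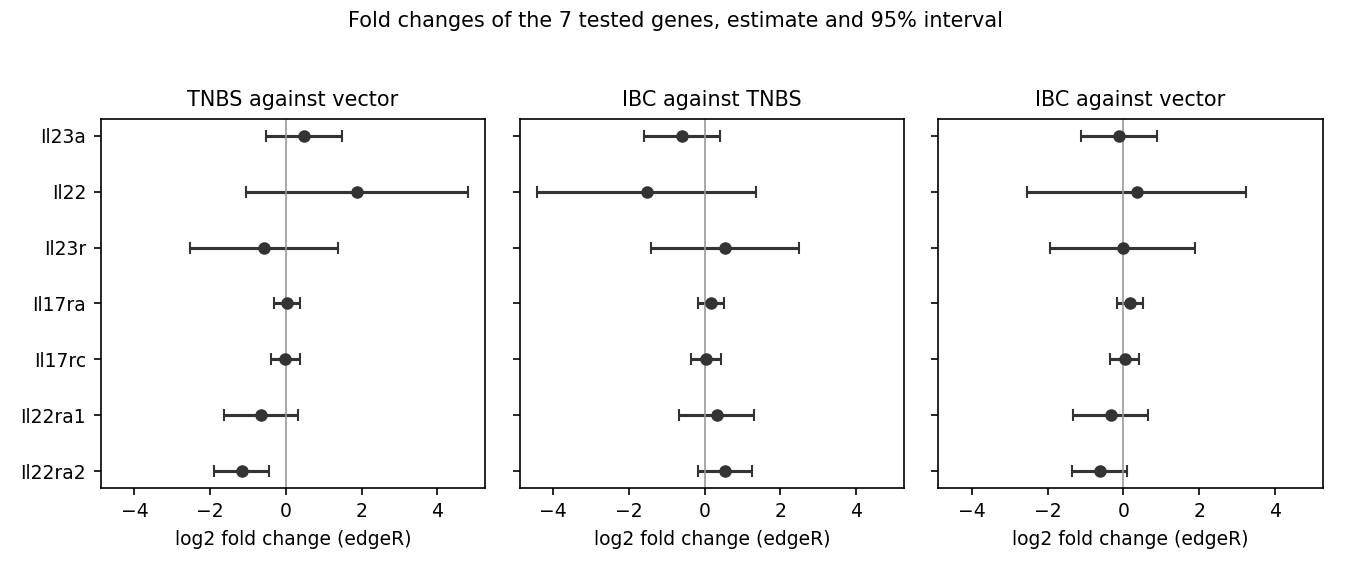
Log2 fold changes of the 7 tested genes by edgeR in the 3 comparisons, with points for estimates and bars for 95% intervals. Only the bar of Il22ra2 in TNBS against vector, from -1.898 to -0.44, leaves out 0, and the bars of Il17ra and Il17rc are the narrowest.

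The rest of the pathway was read through 5 lists. Of 14 other ligands and receptors 10 were tested, and Il17f, Il25, Il12rb2 and Il21 were removed as too low. In TNBS against vector, 1 of the 10 was higher and 2 were lower at an unadjusted edgeR p under 0.05, against 10.4% and 7.32% of all genes, and 0 passed after adjustment. In IBC against vector 0 were higher and 2 lower, against 4.9% and 3.63% of all genes, and in IBC against TNBS 0 of 10 were called. Il17f, the partner of interleukin 17A in its heterodimer, was detected in 11 of 18 libraries with at most 0.343 CPM. Il17d, another cytokine of the family, had a median of 3.99 FPKM, the highest among the interleukin 17 ligands measured.

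The lower pair were receptors of the same family. Il17re, which pairs with Il17ra as the receptor for interleukin 17C, ranged from 15.0 to 26.7 CPM for vector, 11.2 to 16.3 for TNBS and 9.72 to 18.7 for IBC. All 6 TNBS and all 6 IBC libraries lay below the vector median, though the ranges overlapped. The log2 fold change was -0.61 ± 0.20 (SE) in TNBS against vector (edgeR adjusted p = 0.174), -0.01 ± 0.20 in IBC against TNBS (edgeR adjusted p = 0.994) and -0.62 ± 0.20 in IBC against vector (edgeR adjusted p = 0.347). Il17rb, the receptor for interleukins 17B and 25, averaged 3.25 ± 1.12 CPM for vector, 1.97 ± 1.07 for TNBS and 1.63 ± 0.428 for IBC (SD, n = 6 each). It gave -0.72 ± 0.32 in TNBS against vector (edgeR adjusted p = 0.257), -0.28 ± 0.32 in IBC against TNBS (edgeR adjusted p = 0.936) and -0.99 ± 0.32 in IBC against vector (edgeR adjusted p = 0.358).

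Of 16 genes of signalling below the receptors, 2 were higher and 0 lower at an unadjusted edgeR p under 0.05 in TNBS against vector. The shares of all genes were 10.4% and 7.32%, and the list median was -0.02 on the log2 scale. DESeq2 called 2 higher there, against 1.59% of the genes it gave an adjusted p. Of the 16, 0 were higher and 2 lower in IBC against TNBS, against 1.71% and 2.22% of all genes, and in IBC against vector 1 was higher and 0 lower, against 4.9% and 3.63%. Cebpb, a transcription factor induced by interleukin 17, averaged 22.4 ± 3.85 CPM for vector, 43.1 ± 16.5 for TNBS and 32.0 ± 8.6 for IBC (SD, n = 6 each). Its log2 fold change was 0.95 ± 0.25 in TNBS against vector (edgeR adjusted p = 0.113), which passed with DESeq2 (adjusted p = 0.0176) and, at 1.12, by edgeR without TNBS 6 (adjusted p = 0.0157). Under 28 of 30 alternatives Cebpb did not pass there. The log2 fold change of Cebpb was -0.43 ± 0.25 in IBC against TNBS (edgeR adjusted p = 0.925) and 0.52 ± 0.25 in IBC against vector (edgeR adjusted p = 0.586). Socs3, the feedback inhibitor that STAT3 induces, averaged 23.4 ± 31.6, 86.2 ± 68.3 and 33.0 ± 8.92 CPM in the same order.

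The vector mean of Socs3 rests on vector 4 at 87.9 CPM, the only vector library with Il22 counts, and the next vector library stood at 12.9 CPM. Whether Socs3 follows Il22 over the libraries was not tested. The log2 fold change of Socs3 was 1.88 ± 0.61 in TNBS against vector (edgeR adjusted p = 0.176), -1.38 ± 0.60 in IBC against TNBS (edgeR adjusted p = 0.925) and 0.50 ± 0.59 in IBC against vector (edgeR adjusted p = 0.887). The first of these passed with DESeq2 (adjusted p = 0.0356) and, at 3.03, by edgeR without vector 4 (adjusted p = 0.0495). Under 28 of 30 alternatives it did not pass. Stat3, the transcription factor below the interleukin 22 and 23 receptors, gave 0.37 ± 0.19 in TNBS against vector (edgeR adjusted p = 0.316), -0.03 ± 0.19 in IBC against TNBS (edgeR adjusted p = 0.99) and 0.34 ± 0.19 in IBC against vector (edgeR adjusted p = 0.684).

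Of 12 genes of the type 17 lymphocyte programme, 1 was higher and 1 lower at an unadjusted edgeR p under 0.05 in TNBS against vector, against 10.4% and 7.32% of all genes, with a list median of -0.13 on the log2 scale. Of the 12, 1 was higher and 0 lower in IBC against TNBS, against 1.71% and 2.22% of all genes. In IBC against vector 1 was higher and 1 lower, against 4.9% and 3.63%. DESeq2 called 1 higher in IBC against vector, against 0.652% of the genes it gave an adjusted p. Batf, a transcription factor of type 17 helper T cells, gave 0.98 ± 0.35 in TNBS against vector (edgeR adjusted p = 0.198), -0.26 ± 0.35 in IBC against TNBS (edgeR adjusted p = 0.944) and 0.72 ± 0.35 in IBC against vector (edgeR adjusted p = 0.601). Il7r, the interleukin 7 receptor of naive and innate lymphocytes, gave -1.06 ± 0.36 in that comparison with 6 of 6 TNBS libraries below the vector median (edgeR adjusted p = 0.186). In IBC against TNBS Il7r gave 0.11 ± 0.35 (edgeR adjusted p = 0.981), and in IBC against vector it gave -0.95 ± 0.36 with 6 of 6 IBC libraries below the vector median (edgeR adjusted p = 0.445). Id2, an inhibitor of E proteins needed for innate lymphoid cells, gave -0.31 ± 0.17 in TNBS against vector (edgeR adjusted p = 0.319), -0.03 ± 0.17 in IBC against TNBS (edgeR adjusted p = 0.989) and -0.34 ± 0.17 in IBC against vector (edgeR adjusted p = 0.603).

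All 5 pathway lists were chosen with earlier results of these data known, so the shares given for them are descriptions only. Of the 5, the targets of interleukin 17 had the largest median fold change in both comparisons with vector. Of 12 genes 11 were tested, and 7 were higher and 0 lower in TNBS against vector at an unadjusted edgeR p under 0.05, against 10.4% and 7.32% of all genes, with a list median of 3.28 against -0.01 over all genes. Of these 11, 8 had a fold change above 0 and 3 below 0, in both comparisons with vector. Of all genes, 48.9% were above 0 in TNBS against vector and 49.1% in IBC against vector. The TNBS means of Pigr, Tnfaip3 and Ccl20 were 2097, 37.3 and 3.68 CPM, under vector means of 3293, 45.0 and 4.39. For IBC those means were 2350, 34.7 and 3.52 CPM. Summed over the list, the mean level was 2246 CPM for TNBS, 2454 for IBC and 3379 for vector. Pigr alone held 2097, 2350 and 3293 CPM of these in that order, so the sum mostly gives the level of Pigr. None of the 11 passed the adjusted edgeR test, and DESeq2 called 6 higher, against 1.59% of the genes it gave an adjusted p. In IBC against vector 7 were higher (list median 2.73), against 4.9% of all genes, and DESeq2 called 4 higher, against 0.652%, and in IBC against TNBS 0 were called in either direction (list median -0.20).

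Cxcl1, a chemokine that attracts neutrophils, ranged from 0.232 to 0.552 CPM for vector, from 0.760 to 6.83 for TNBS and from 0.575 to 7.02 for IBC. Every TNBS and every IBC library thus lay above every vector library. Of all genes tested, 0.432% were separated upwards in this way in TNBS against vector and 0.446% in IBC against vector. The log2 fold change of Cxcl1 was 3.28 ± 0.66 in TNBS against vector (edgeR adjusted p = 0.0902), -0.56 ± 0.59 in IBC against TNBS (edgeR adjusted p = 0.929) and 2.73 ± 0.64 in IBC against vector (edgeR adjusted p = 0.213). Cxcl2 and Cxcl5, chemokines of the same kind, gave 6.49 ± 1.32 (edgeR adjusted p = 0.0903) and 6.88 ± 1.48 (edgeR adjusted p = 0.0909) in TNBS against vector, again with every TNBS library above every vector library.

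Those 3 chemokines were at or near 0 in vector: Cxcl2 had counts in 1 of 6 vector libraries, so the size of its fold change depends on the prior count of the fit. In IBC against vector Cxcl2 gave 7.44 ± 1.34 (edgeR adjusted p = 0.125) and Cxcl5 gave 6.32 ± 1.45 (edgeR adjusted p = 0.213). In IBC against TNBS they gave 0.95 ± 0.92 (edgeR adjusted p = 0.925) and -0.55 ± 1.10 (edgeR adjusted p = 0.969). Without TNBS 6, Cxcl1, Cxcl2 and Cxcl5 passed in TNBS against vector (edgeR adjusted p = 0.0197, 0.0244 and 0.0268), and they also passed with the Hoxb13 set as a term (edgeR adjusted p = 0.0366, 0.0366 and 0.0481) and with DESeq2 (adjusted p = 3.67e-05, 0.000146 and 7.76e-06). Under 27 of 30 alternatives Cxcl1 and Cxcl5 did not pass there, and Cxcl2 did not under 26 of 29.

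Beside these targets, markers of several cell types also had calls against vector at the unadjusted edgeR p, those of neutrophils among them. S100a8 and S100a9 stand on both lists, and the sum of the 8 neutrophil markers ran from 4.34 to 158 CPM for vector, from 90.4 to 957 for TNBS and from 29.4 to 227 for IBC. Most of that sum was Ly6g. Its mean was 68.1 of 71.6 CPM for vector, 254 of 315 for TNBS and 112 of 145 for IBC. All 8 markers were higher at an unadjusted edgeR p under 0.05 in TNBS against vector (10.4% of all genes) and 7 of 8 in IBC against vector (4.9%). S100a8, Cxcr2 and Mmp8 were at 0 in some libraries. Of the macrophage and dendritic cell markers, 4 of 10 were higher in TNBS and 7 of 10 in IBC against vector by the same rule. Of 7 squamous epithelium markers 5 were tested, and 4 of the 5 were higher in each of those comparisons. The sum of the 7 ran from 1.08 to 4.73 CPM for vector, from 1.93 to 189 for TNBS and from 3.02 to 41.7 for IBC, with Krt4, Krt5, Krt6a and Trp63 at 0 in some libraries. Smooth muscle markers were on the other side: 8 of 8 had a fold change below 0 in both comparisons, against 51.1% and 50.9% of all genes. At the unadjusted p, 3 of 8 were lower in TNBS and 4 of 8 in IBC (7.32% and 3.63% of all genes). In TNBS against vector 1 of the 8 passed the adjusted edgeR test, against 0.0192% of all genes. Their sum ran from 3001 to 8563 CPM for vector, from 1932 to 4646 for TNBS and from 2490 to 5088 for IBC, with none at 0. The part of these markers in the target list was not tested. Il17a itself had 75 counts in all, so its level cannot be set against these targets library by library.

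Of 12 targets of interleukin 22, 2 were higher and 0 lower in TNBS against vector at an unadjusted edgeR p under 0.05, against 10.4% and 7.32% of all genes, with a list median of 0.89. A fold change above 0 was found for 11 of the 12 there, against 48.9% of all genes. In IBC against TNBS 0 were higher and 1 was lower (list median -0.36), against 1.71% and 2.22% of all genes, and in IBC against vector 1 was higher (list median 0.57), against 4.9%. Saa3, an acute-phase protein, averaged 2.45 ± 3.05 CPM for vector, 44.6 ± 55.7 for TNBS and 23.4 ± 22.3 for IBC (SD, n = 6 each), and gave 4.18 ± 1.09 in TNBS against vector (edgeR adjusted p = 0.113), -0.93 ± 0.96 in IBC against TNBS (edgeR adjusted p = 0.926) and 3.25 ± 1.04 in IBC against vector (edgeR adjusted p = 0.358). Duoxa2, the maturation factor of an epithelial oxidase, gave 1.47 ± 0.60 in TNBS against vector (edgeR adjusted p = 0.231), -0.51 ± 0.59 in IBC against TNBS (edgeR adjusted p = 0.937) and 0.96 ± 0.60 in IBC against vector (edgeR adjusted p = 0.716). Fut2, a fucosyltransferase of epithelium, gave 0.63 ± 0.31 in TNBS against vector (edgeR adjusted p = 0.289), -0.71 ± 0.31 in IBC against TNBS (edgeR adjusted p = 0.925) and -0.08 ± 0.31 in IBC against vector (edgeR adjusted p = 0.97). In TNBS against vector Saa3 passed with DESeq2 (4.22, adjusted p = 0.00247), with the Hoxb13 set as a term (4.92, edgeR adjusted p = 0.0328) and without TNBS 6 (4.43, edgeR adjusted p = 0.0399). Under 27 of 30 alternatives it did not pass there.

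**Figure D4:**
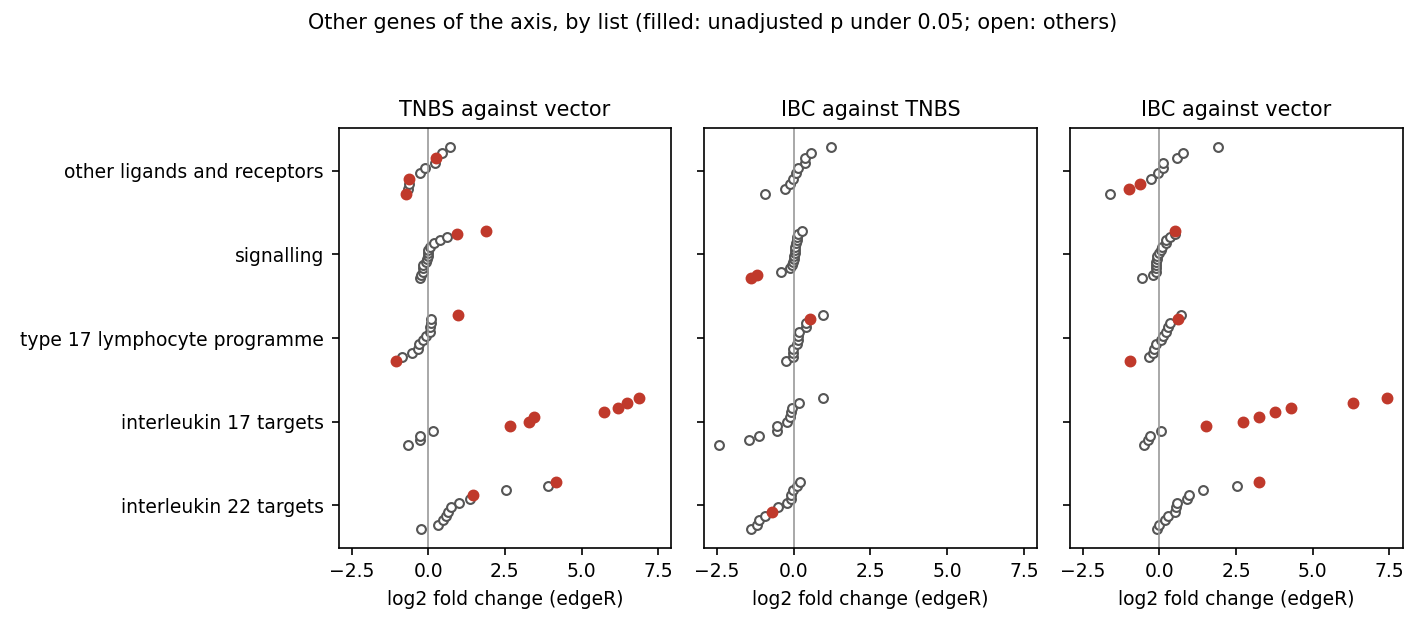
Log2 fold changes by edgeR of the tested genes of 5 lists in the 3 comparisons, with 1 point per gene, filled where the unadjusted p is under 0.05. In both comparisons with vector 7 interleukin 17 targets are filled and lie to the right, and in IBC against TNBS none of that list is filled.

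Reg3b, an antimicrobial lectin on the list of interleukin 22 targets that was singled out after its values were seen, was set beside Il22 in each library. It stood at 598 to 22680 CPM in the 6 libraries low in Hoxb13 and at 0.203 to 176 CPM in the 12 others. TNBS 3 was highest in both genes, with 192 counts of Il22 and 22680 CPM of Reg3b. Within the 12 others, TNBS 5 had 60 counts of Il22 and a Reg3b level of 15.6 CPM, while TNBS 6 had 0 counts and 176 CPM. Reg3b gave a log2 fold change of 3.92 ± 2.46 in TNBS against vector (edgeR adjusted p = 0.396), with the groups overlapping.

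**Figure D5:**
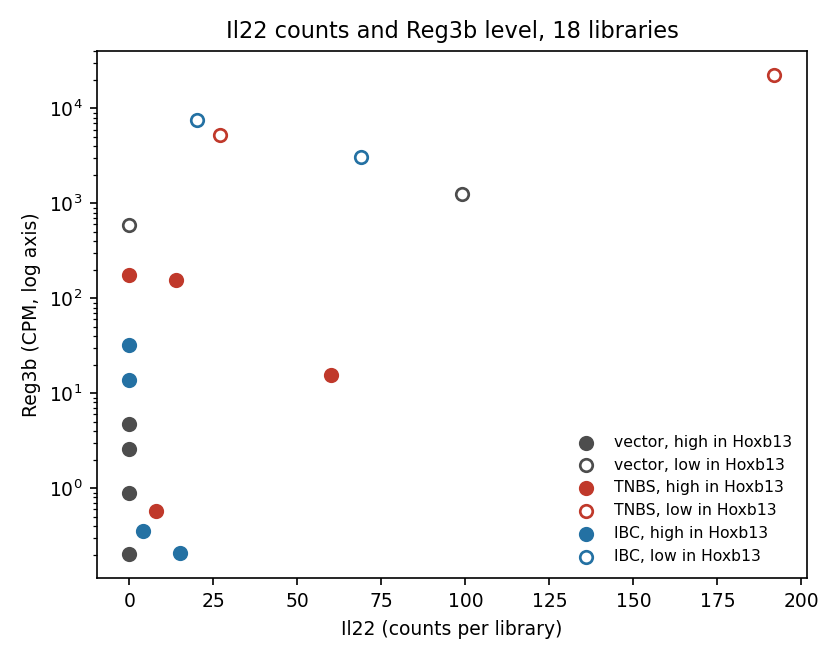
Il22 counts per library against the level of Reg3b in CPM on a log axis, with 1 point per library, coloured by group and open where Hoxb13 is low. The 6 open points lie at or above 598 CPM of Reg3b with 0 to 192 counts of Il22, and the 12 filled points lie at or below 176 CPM with 0 to 60 counts.

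For each of the 7 tested genes, the 3 genes most alike were found by Spearman's rho of log2 CPM over the 18 libraries, among 20854 others. Il22ra2 was most like Il9r (rho 0.931), H2-Ea (0.899) and St6gal1 (0.868). Il23r was most like Il18r1 (0.851), Il2rb (0.786) and Cd96 (0.773). Il22ra1 was most like Garem1 (0.936), Gm16077 (0.922) and Ncoa4-ps (0.909). No gene among the nearest 3 of any of the 7 was itself a member of the axis.

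Il17rc was most like 2610528J11Rik (0.893), Hsd17b2 (0.887) and Gm5560 (0.862), and Il17ra was most like Usp11 (0.854), Padi2 (0.841) and Cd209a (0.825). Il22 was most like Slc19a1 (0.919), Zdhhc3 (0.875) and Ppm1g (0.850), and Il23a was most like 4933439C10Rik (0.785), Gm49586 (0.759) and Tspan14 (0.732). These are descriptions chosen as the highest of many: the libraries share the Hoxb13 split, and for Il22 and Il23r libraries at 0 tie in rank. With Pearson's correlation in place of rho, 1 of 3 names was kept for Il22ra2, 1 for Il23r, 1 for Il22ra1, 2 for Il22 and 0 for Il17ra, Il17rc and Il23a.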

How the data were processed

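RNA sequencing of polyadenylated RNA was deposited for 18 mouse colon libraries, and reads were trimmed with cutadapt 1.9 per the submitters' processing notes. Which aligner, counting program, strand setting, annotation and build the submitters used is not given in the sources used here. In the deposited table there is a count and an FPKM value for each of 35405 genes in every library, per the file headers, and all its value columns were used. Count columns were checked to be whole numbers. Counts of 4 occurred in 19961 gene and library pairs, against 9977 with 3 and 6358 with 5, so 1 fragment may add several counts.

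The filterByExpr function of edgeR 4.0.16 (R 4.3.3) kept 20855 genes, and TMM factors scaled the totals. A quasi-likelihood fit (edgeR) with 1 mean for each group took in all 18 libraries, each test was two-sided, and Benjamini-Hochberg adjustment ran over all genes tested at a threshold of 0.05. Levels of a gene across libraries are CPM of scaled totals, and levels between genes are the deposited FPKM. Standard errors were worked back from the edgeR test, as the absolute log2 fold change over the square root of its F statistic. Intervals of 95% are the estimate ± 1.96 standard errors, and both are approximate, most of all for genes with few counts. The library totals limit the precision of low genes. Alternatives were DESeq2 1.42.0, limma 3.58.1 on log2 FPKM, other filters, the Hoxb13 set as a term (over or under 10 CPM) and leaving out each library.

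Named genes are the 9 members, the 3 genes of each of 5 pathway lists with the smallest p in TNBS against vector, and the 3 genes most alike to each tested member. Partners and other genes described beside a member, and Reg3b, fall outside this rule and were added after their values were seen. The members and lists were chosen with earlier results of these data known. On simulated data with 4-fold changes, the test recovered 72.0% of changed genes in TNBS against vector (20392 genes), 70.5% in IBC against TNBS (20397) and 71.5% in IBC against vector (20388). No pair of libraries held identical values. The same library number was not taken to pair libraries.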

Additional observations from a re-analysis of the deposited data

Results flagged for a closer look

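In 66 groups of 6 libraries (22 genes in 3 groups), the highest or lowest library was set against the rest on the log2 CPM scale. A gap larger than Dixon's 95% critical value for 6 samples was taken as far from the others. The values below are printed in CPM, and the rule was not applied on that scale. For normally spread values chance alone gives about 1 such group in 20. That rate does not hold where all but 1 library are at 0, as any counts in that library then meet the rule. Among the 21 groups of the tested members of the axis 1 met it. Il22 was at 1.25 CPM in vector 4, and the other 5 vector libraries were at 0. The other 4 groups belong to genes of the pathway lists. Socs3 stood at 87.9 CPM in vector 4, with the next vector library at 12.9 CPM. Cxcl2 stood at 0.0790 CPM in vector 3, with the other vector libraries at 0. Il7r stood at 9.28 CPM in vector 2, with the next at 3.29 CPM, and in IBC 4 it was lowest at 0.733 CPM, with the next at 2.02 CPM.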

How the results depend on the processing

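The 3 low genes Il22, Il23a and Il23r set the limit of what can be read here, and the stricter filter and counts divided by 4 left all 3 out of the test. Under every alternative run, 0 of the tested members passed in any of the 3 comparisons, and 4 members stayed readable with counts divided by 4 or any library left out, which were tried after the data were seen. Of 1954 alternative fold changes for the members and the named list genes, 1846 kept their direction and their side of the threshold, 19 passed only there and 89 turned direction, all of the latter with adjusted p of 0.449 or more. Il22ra2 stayed below 0 in TNBS against vector under all alternatives, with -1.35 to -0.84 when 1 library was left out. The count over all genes in TNBS against vector, 4, was 574 with DESeq2, 142 with the Hoxb13 set as a term, 2 with the stricter filter, and 0 with no filter, with either limma fit, with counts divided by 4, with the 2 groups alone and in either Hoxb13 set alone. It ranged from 0 to 323 when 1 library was left out, with the 323 reached without TNBS 6. In IBC against TNBS the count, 0, was 2 with DESeq2 and 0 to 1 with 1 library left out. In IBC against vector the count, 0, was 186 with DESeq2, 8 with the 2 groups alone, 4 with the Hoxb13 set as a term, 30 in the libraries high in Hoxb13 alone and 0 to 5 with 1 library left out.

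Log2 fold changes that turned direction are given next, and the cause was not tested. In the libraries high in Hoxb13 alone these were -0.066 for Il23a in TNBS against vector, and -0.13 for Il23r, -0.35 for Il17rc, 0.19 for Stat3 and -0.096 for Il7r in IBC against TNBS, and -0.36 for Il17rc and 0.25 for Fut2 in IBC against vector. With limma on log2(FPKM + 0.1) these were -0.036 for Il17ra in TNBS against vector, and 0.19 for Saa3, 0.11 for Stat3, 0.062 for Il17re, 0.013 for Il10rb, 0.032 for Batf and 0.062 for Id2 in IBC against TNBS, and 0.033 for Il23a and 0.098 for Fut2 in IBC against vector. With limma on log2(FPKM + 1) these were -0.00397 for Il17ra in TNBS against vector, and 0.10 for Stat3, 0.049 for Il17re, 0.012 for Il10rb and 0.056 for Id2 in IBC against TNBS, and 0.000427 for Il23a, 0.00292 for Il23r and 0.093 for Fut2 in IBC against vector. With DESeq2 size factors and with DESeq2 itself Il17rc gave 0.00301 and 0.00300 in TNBS against vector. In the libraries low in Hoxb13 alone these were 0.015 for Il17rc and 0.062 for Id2 in TNBS against vector, and -0.86 for Il22ra1, -1.19 for Cxcl2, 0.087 for Il17re and 0.17 for Id2 in IBC against TNBS, and 0.99 for Il23a, 0.54 for Il23r, 0.36 for Il22ra2, -0.69 for Socs3, -0.12 for Stat3 and 0.24 for Id2 in IBC against vector. With the Hoxb13 set as a term these were 0.00381 for Fut2 in IBC against vector. The fit of limma on log2(FPKM + 0.1) moved the median of all genes in IBC against TNBS to 0.11. When 1 library was left out, some fold changes changed sign. In TNBS against vector the ranges were -0.051 to 0.18 for Il17ra and -0.061 to 0.055 for Il17rc. In IBC against TNBS the ranges were -0.073 to 1.06 for Il23r, -0.20 to 0.12 for Il17rc, -0.037 to 0.61 for Il22ra1, -1.39 to 1.24 for Cxcl5, -0.15 to 0.057 for Stat3, -0.13 to 0.066 for Il17re, -0.43 to 0.047 for Il17rb, -0.43 to 0.12 for Batf and -0.16 to 0.054 for Id2. In IBC against vector the ranges were -0.44 to 0.11 for Il23a, -0.98 to 7.16 for Il22, -0.65 to 0.37 for Il23r, -0.21 to 0.11 for Il17rc and -0.24 to 0.28 for Fut2. The 7.16 for Il22 comes from leaving out vector 4, where every vector count is 0, so it depends on the prior count of the fit.

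The replicate block called 1 gene over the whole table in TNBS against vector and no member. Log2 fold changes that turned direction with the replicate block were -0.00579 for Il17ra in TNBS against vector, and 0.11 for Cxcl5, 0.29 for Saa3 and 0.00713 for Stat3 in IBC against TNBS, and 0.063 for Il23a, -0.035 for Il17rc and 0.029 for Fut2 in IBC against vector. Only 7 of 18 same-numbered pairs of libraries deviated together above a correlation of 0.1 (median -0.0208), and 4 of 18 libraries were closest to their own number, so the numbers were not taken to pair libraries. The block called no gene in the other 2 comparisons.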
